A study of Mus musculus with 9 samples.

Results

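Leukemic progenitors (LP) of the median phase were compared with LP of the early phase, in 3 libraries of each phase, which are 6 of the 9 libraries of the series. The 6 libraries were chosen by their labels and no measured value was used. All 6 came from sorted bone marrow of FVB/NJ mice, an inbred strain, with the genotype PML-RAR. The other 3 libraries hold wild-type FVB/NJ hematopoietic progenitor cells (HPC) at postnatal day 42, whose levels are given beside those of LP as a reference. Only the phase differs between the labels of both LP groups, and no postnatal day is given for either. The promoter that drives PML-RAR, the sorting markers, the sex and the number of animals were not given in the sources used here. Nothing in the labels ties the 3 libraries of a phase to different mice, and each p-value therefore covers the spread among libraries, which may be technical.

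PML-RAR joins the promyelocytic leukemia protein to retinoic acid receptor alpha and drives acute promyelocytic leukemia, in which myeloid cells accumulate at the promyelocyte stage. Promyelocytes fill primary granules with myeloperoxidase and serine proteases such as elastase and cathepsin G. Normal cells then pass to the next stages, stop dividing, and make secondary and tertiary granules that hold lactoferrin and matrix metalloproteinases. The comparison of phases asks what changes in leukemic progenitors as the disease goes on.

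Levels are counts per 1 M counts (CPM), from the deposited estimated counts, and depth was 20.6 to 28.4 M recovered fragments per library. Log2 CPM correlated across genes at r = 0.991 to 0.992 between early libraries, 0.991 to 0.993 between median libraries, 0.984 to 0.988 between early and median libraries, and 0.758 to 0.790 between LP and HPC. These r are across genes, which are not independent replicates. Mpo, myeloperoxidase, a promyelocyte gene, ranged from 16521 to 23365 CPM over the 6 LP libraries and from 8781 to 9652 in HPC. Cd34, a surface marker of stem and progenitor cells, stood at 1.19 to 3.81 CPM in LP and at 250 to 310 in HPC, so this marker was nearly absent from LP. Kit, the receptor of stem cell factor, stood at 237 to 253 CPM in LP and 413 to 459 in HPC. Pml (early 67.9, 69.0 and 63.4 CPM, median 61.0, 66.1 and 66.0) and Rara (3.22, 3.51 and 3.33, then 2.65, 2.86 and 1.80) were not called (adjusted p = 0.695 and 0.229). Xist, the RNA of the inactive X chromosome, was listed in all libraries at 465 to 748 CPM in early, 667 to 1242 in median LP and 868 to 2644 in HPC.

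Few genes were called between the 2 phases, and with 3 libraries of each phase a gene without a call may still differ. Globin genes were over 40-fold higher in median LP. Secondary granule metalloproteinases and lactoferrin were lower, as were 12 of 28 clustered histone genes and the AP-1 genes Fos and Jun. Heat shock genes of the Hspa1 pair were about 4-fold higher. In a list of cholesterol synthesis and uptake, 10 of 30 genes were higher by under 1.5-fold. Of 12837 genes tested, 318 (2.48%) were called at an adjusted p under 0.05 in edgeR's quasi-likelihood test, 190 higher (1.48%) and 128 lower (0.997%) in median LP. The median fold of the called genes was 1.63 among those higher and 2.10 among those lower, and 65 and 68 of them changed at least 2-fold.

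**Figure D1:**
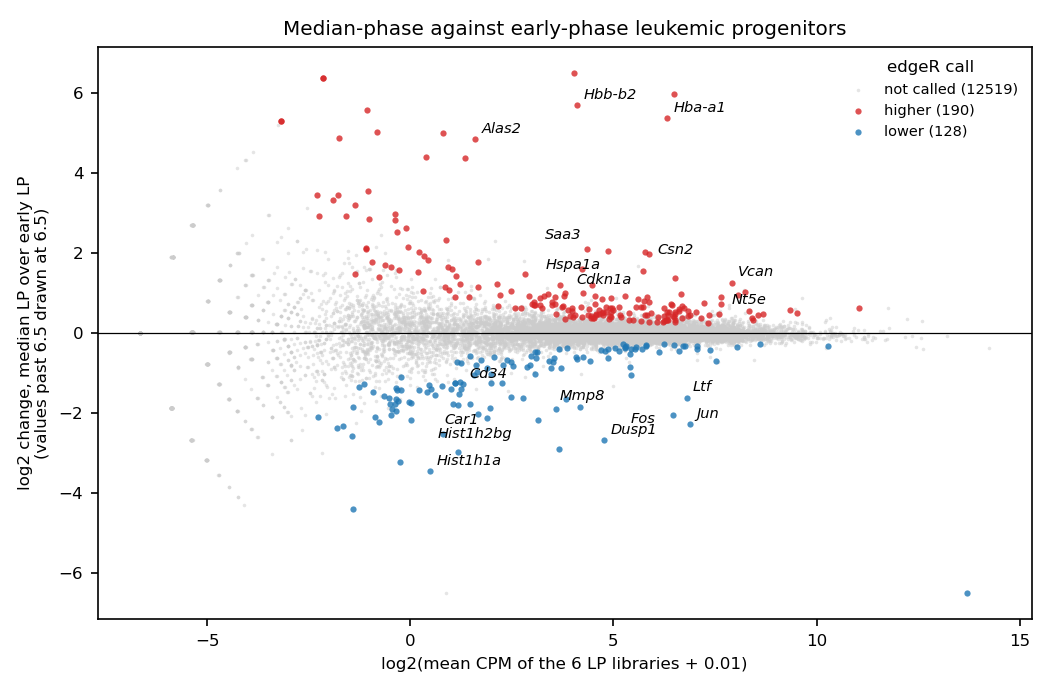
Each point is 1 of 12837 tested genes, with the log2 of the mean CPM of the 6 LP libraries plus 0.01 on the horizontal axis and the log2 change of median over early LP on the vertical axis. Red and blue points are the 190 genes called higher and the 128 called lower, and 262 of these 318 lie within 2 log2 units of 0, while the globins and Alas2 lie near 5 or above.

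The calls depended on the libraries used. Leaving out each LP library in turn left between 66 and 133 genes higher and between 39 and 77 lower, with the fewest on both sides without early LP 2, and 89 calls (57 higher and 32 lower) passed in all 6 such fits. DESeq2 called 325 higher and 251 lower, and a fit of only the LP libraries 362 and 243. With each library's dependence on transcript length as a covariate 735 and 565 were called, among them all 318 genes of the main test. The covariate was computed from within-group deviations in the same counts and takes up part of their spread. These added calls are therefore not independent support. The libraries of the 2 phases did not overlap for 1588 genes with median higher (12.4%) and 1759 with early higher (13.7%), together 26.1%, against which counts of gene groups are read below. Of the called genes 41 lie in a locus shared with another gene, among them Txnip, Tk1, Gins2, Nusap1, Dnaja1, Hbb-b2 and Ear2, and their counts are uncertain. Of 46 gene lists with 978 tested members, 67 members were higher and 43 lower, and 9 lists had no called member. Together 11.2% of tested members were called, against 2.48% of all genes tested. The lists were chosen with earlier results of these data known, so this difference cannot be read as a result about them.

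Among called genes whose phases did not overlap and whose higher phase averaged 5 CPM or more, globin genes had the largest increases. Hemoglobin is made of alpha and beta globin chains around heme, and its genes are switched on in late red cell precursors. Hba-a1, an alpha globin gene (mm10, chromosome 11, 32283672 to 32284493), stood at 2.87, 5.69 and 2.71 CPM in the 3 early libraries and at 137, 201 and 131 in the 3 median ones. The phases were far apart, and the HPC mean of 26.3 ± 9.30 CPM (SD, n = 3) lay between them. The log2 change was 5.38 (SE 0.32, adjusted p = 7.95e-06). Beta-s, the adult beta globin gene (chromosome 7, 103826523 to 103827928), went from 2.22, 3.97 and 2.29 CPM to 154, 210 and 170, a log2 change of 5.97 (SE 0.43, adjusted p = 4.74e-05), and had 10.3 ± 7.05 CPM in HPC. Hbb-b2, the minor beta globin, went from 0.653, 0.753 and 0.541 CPM to 29.8, 37.2 and 34.7. Hba-a2 had no count in any early library and 30.7, 24.5 and 41.9 CPM in median LP, at least 721-fold higher against a floor of 3 recovered fragments over the group. Hba-a2 entered the tested genes through its level in median LP alone. In each of the 4 genes all 3 median libraries were above all 3 early ones. The table gives Hba-a1 and Hba-a2 the same coordinates and the copies are near-identical, so their split is uncertain. The sum of both alpha globins was 3.76 ± 1.67 CPM in early, 189 ± 31.8 in median LP and 29.4 ± 11.3 in HPC, a ratio of 50.3 between the phases. For the 3 beta globins it was 3.52 ± 1.05, 213 ± 33.4 and 12.1 ± 7.94 CPM, a ratio of 60.4. Per length, Hba-a1 and Beta-s in median LP were at similar levels, 405 and 375 FPKM (fragments per kilobase and 1 M fragments).

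A few other red cell genes were called higher. Alas2, the first enzyme of heme synthesis in red cells (chromosome X, 150547417 to 150570622), stood at 0.218, 0.209 and 0.167 CPM in early LP and at 4.97, 6.90 and 5.67 in median LP, against 1.85 ± 0.440 in HPC. Its log2 change was 4.85 (SE 0.29, adjusted p = 7.95e-06), and no early library came near the median ones. Spna1, the red cell alpha spectrin, rose by 2.02 (SE 0.28) and Slc4a1, the band 3 anion exchanger, by 4.38 (SE 0.71), both from under 0.6 CPM in each early library. The call of Slc4a1 ended without early LP 2 (adjusted p = 0.0507). Epb4.2, which links band 3 to the membrane skeleton, was higher by a ratio of 8.12 (95% interval 2.498 to 41.8, counting error only) and Trim10, a gene of red cell maturation, by 10.8 (3.42 to 54.9). Both ratios rest on 3 early fragments, and the calls ended without any 1 of the 6 libraries for Epb4.2 (adjusted p 0.0505 to 0.127) and without any but median LP 2 for Trim10 (0.0514 to 0.162).

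Most of the erythroid list did not share this rise, and 13 of its 24 tested members had a negative change. Car1, a carbonic anhydrase of erythroid progenitors (chromosome 3, 14766214 to 14808365), went from 4.53, 6.65 and 7.08 CPM to 1.57, 1.45 and 1.98, with no overlap, and fell by 1.87 (SE 0.20, adjusted p = 0.000970). In HPC it stood at 1577 ± 203 CPM. Pklr, the pyruvate kinase of red cells and liver, fell by 2.10 (SE 0.40), a call that ended without any library but early LP 3 (adjusted p 0.0704 to 0.155). Klf1, the transcription factor that turns on adult beta globin, stood at 0.566, 0.669 and 0.708 CPM in early LP and 0.414, 0.703 and 0.571 in median LP (adjusted p = 0.763), against 118 to 145 in HPC. The phases overlapped for it. Gata1, the master factor of red cell and megakaryocyte fate, went from 0.305, 0.753 and 1.25 CPM to 0.248, 0.308 and 0.352 (adjusted p = 0.171), and Car2 was not called either. Nor were the membrane and skeleton genes Ank1 (0.14), Spnb1 (-0.09), Ermap (-0.40) and Aqp1 (-0.76). Of 24 tested members of the erythroid list, 9 were higher and 2 lower, and the median log2 change was -0.05, against 0.00 over all genes tested. The summed level of the list was 206 to 223 CPM in early, 513 to 662 in median LP and 5146 to 5649 in HPC. Nearly all of the rise between the phases came from Hba-a1, Hba-a2 and Beta-s, which averaged 156, 32.4 and 178 CPM in median LP. In bulk RNA more cells of a type and more RNA per cell cannot be told apart, and the part of red cells within the sorted LP in these changes was not tested.

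**Figure D2:**
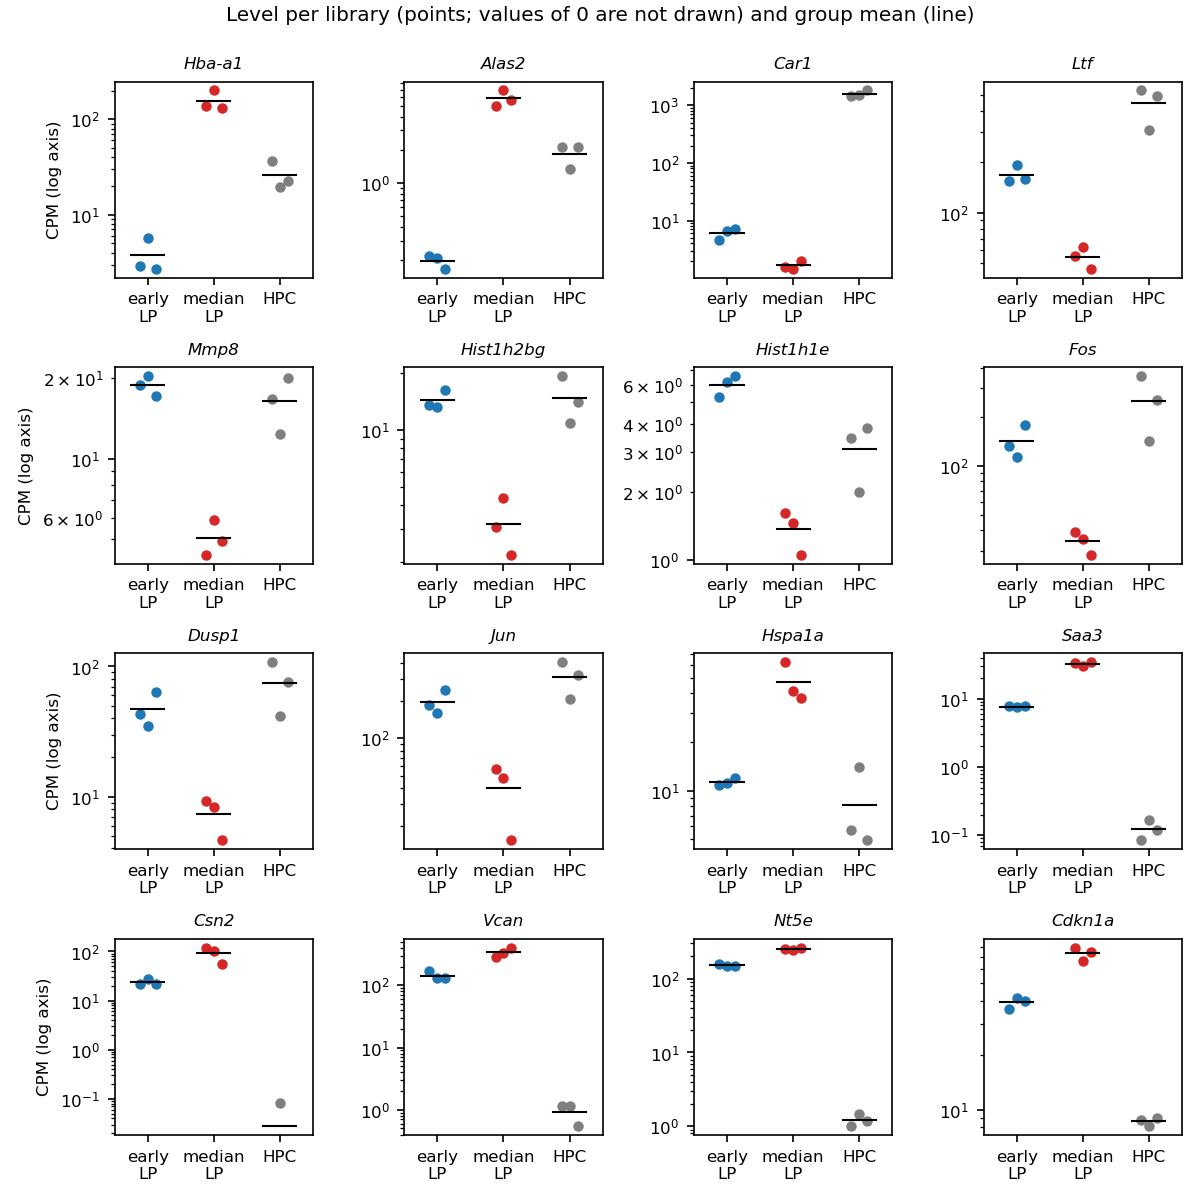
Points are the CPM of each library on a log axis for 16 genes in early LP (blue), median LP (red) and HPC (grey), and lines are means of 3 libraries. Points of both LP phases are apart in all 16 panels, and HPC lies far from both phases for Car1, Saa3, Csn2, Vcan and Nt5e.

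Among neutrophil genes, part of the secondary and tertiary granule set was lower in median LP while other members of the same set were not. Mmp8, neutrophil collagenase (chromosome 9, 7558429 to 7568486), stood at 18.8, 20.3 and 17.2 CPM in early LP and at 4.39, 5.89 and 4.92 in median LP. It fell by 1.89 (SE 0.17, adjusted p = 0.000334). Mmp9, gelatinase B (chromosome 2, 164948251 to 164955846), went from 26.2, 30.4 and 28.2 CPM to 7.32, 8.88 and 7.43 and fell by 1.84 (SE 0.20, adjusted p = 0.00112). Ltf, lactoferrin (chromosome 9, 111019292 to 111042766), went from 154, 192 and 158 CPM to 55.4, 62.6 and 46.3 and fell by 1.62 (SE 0.18, adjusted p = 0.00116). No median library reached the lowest early one in any of the 3 genes. HPC means were 16.3 ± 3.78 CPM for Mmp8, 22.2 ± 7.16 for Mmp9 and 445 ± 118 for Ltf, so only the median phase was below HPC in the first pair.

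Receptors of the mature neutrophil followed in part. Fpr2, a formyl peptide receptor, fell by 1.39 (SE 0.24), Cxcr2, the receptor that draws neutrophils out of the marrow, by 0.69 (SE 0.14), and Ltb4r1, a leukotriene B4 receptor, by 0.59 (SE 0.13). The call of Fpr2 ended without early LP 2, median LP 1 or median LP 2 (adjusted p 0.0569 to 0.0662), that of Cxcr2 without early LP 2 or 3 or median LP 1 or 2 (0.0708 to 0.137), and that of Ltb4r1 without any library but early LP 1 (0.0757 to 0.149). Il1r2, a decoy receptor for interleukin 1, was higher, at 21.4, 23.4 and 20.03 CPM in early and 41.0, 40.4 and 36.9 in median LP, a log2 change of 0.87 (SE 0.12, adjusted p = 0.00277). Its locus is shared with another gene in the table, and the call ended with limma on log2(FPKM + 0.1) (adjusted p = 0.0884).

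Camp, the cathelicidin stored with lactoferrin, stood at 294, 314 and 301 CPM in early and 271, 255 and 277 in median LP (adjusted p = 0.721), and Lcn2, the siderophore-binding lipocalin, at 99.7, 111 and 113 and then 95.1, 101 and 101 (adjusted p = 0.768). Ngp, another secondary granule protein, had a log2 change of -0.73 (SE 0.21, adjusted p = 0.107), and S100a9, an abundant calcium-binding protein of the neutrophil cytosol, one of 0.62 (SE 0.18, adjusted p = 0.108). So 6 of 22 tested members were lower and 1 higher, with a median log2 change of -0.17. Early libraries were above all median ones in 11 and below them in 7, against 13.7% and 12.4% of all genes. The summed level was 10662 to 10810 CPM in early and 12915 to 14168 in median LP, most of it from S100a8 and S100a9.

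Most primary granule genes had small negative changes, and few passed the test. Mpo went from 19999, 23365 and 22297 CPM to 17610, 16521 and 16577, with no overlap, yet its log2 change of -0.37 (SE 0.10) had an adjusted p of 0.0727. Elane, neutrophil elastase, Ctsg, cathepsin G, and Prtn3, proteinase 3, had log2 changes of -0.39, -0.35 and -0.37 (adjusted p = 0.0712, 0.0661 and 0.0560). Called lower were Srgn, serglycin, the proteoglycan that packs granule proteins, by 0.31 (SE 0.06), and Nkg7, a granule membrane protein, by 0.40 (SE 0.08). Both calls were fragile, since Srgn lost it without any 1 of the 6 libraries (adjusted p 0.0565 to 0.146) and Nkg7 without any but median LP 1 (0.0553 to 0.150). Among the 18 tested members, 14 had a negative change, and the median was -0.15. Early libraries were above all median ones in 11, against 13.7% of all genes.

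Several surface and secreted proteins, taken by the size or adjusted p of their change and not from 1 list, were higher in median LP. Saa3, an acute phase serum amyloid (chromosome 7, 46711998 to 46715676), stood at 7.75, 7.57 and 7.75 CPM in early LP and at 33.7, 29.9 and 34.8 in median LP, a log2 change of 2.09 (SE 0.10, adjusted p = 1.60e-06). The libraries of each phase lay close together, and HPC held 0.123 ± 0.0421 CPM. Lilrb4, an inhibitory receptor of myeloid cells, went from 76.1, 65.9 and 64.7 CPM to 153, 130 and 122 (log2 change 0.97, SE 0.10, adjusted p = 0.000840). Gp49a, its near-identical neighbour on chromosome 10, went from 9.27 to 28.1 CPM on average, and the split between the pair is uncertain. Their sum was 78.2 ± 6.56 and 163 ± 24.1 CPM, a ratio of 2.08. Cd93, a lectin-like receptor of myeloid and early progenitor cells, rose from 219, 191 and 181 to 440, 423 and 344 CPM (log2 change 1.03, SE 0.11, adjusted p = 0.00112).

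Cxcl10, an interferon-induced chemokine (chromosome 5), stood at 26.5, 27.1 and 28.1 CPM in early LP and at 115, 73.0 and 50.3 in median LP. The median libraries spread more than 2-fold but stayed above the early ones, and the log2 change was 1.54 (SE 0.23, adjusted p = 0.00504). Its locus is shared with another gene. In the interferon response list 3 of 29 members were higher, with Rsad2 (2.54, SE 0.36), the antiviral viperin, and Ifit1 (0.89, SE 0.18) beside Cxcl10, and 0 lower. The call of Ifit1 ended without early LP 2 or 3 or any median library (adjusted p up to 0.120). The list had 25 positive changes and a median of 0.22. Median libraries were above all early ones in 11 members, against 12.4% of all genes. In the list of NF-kB and inflammation genes 1 of 22 was called, Cxcl2, a neutrophil chemokine that was lower by a ratio of 24.4 (95% interval 6.36 to 208) from 44 early fragments to 2, a call lost without any 1 LP library (adjusted p 0.0507 to 0.126).

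Monocyte and macrophage markers had a median log2 change of 0.34, with 14 of 18 positive. Median libraries were above all early ones in 11, against 12.4% of all genes, but only 2 markers were called. Emr1, the F4/80 antigen of macrophages, went from 34.9, 37.0 and 32.5 CPM to 57.1, 59.6 and 70.3 (log2 change 0.84, SE 0.09, adjusted p = 0.00116). Vcan, versican, a matrix proteoglycan that classical monocytes express (chromosome 13, 89655310 to 89742512), went from 167, 131 and 129 CPM to 289, 334 and 402, a log2 change of 1.26 (SE 0.15, adjusted p = 0.00135), and had 0.936 ± 0.338 CPM in HPC. Both genes were apart between the phases. Irf8, a factor of monocyte fate, stood at 3.79 to 4.77 CPM in early and 4.31 to 5.45 in median LP (adjusted p = 0.523), against 105 to 130 in HPC, and Ly6c2, Csf1r and Ccr2 were not called. Ly6c2, the Ly6C antigen, stood at 6394 CPM in early and 5824 in median LP on average.

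**Figure D3:**
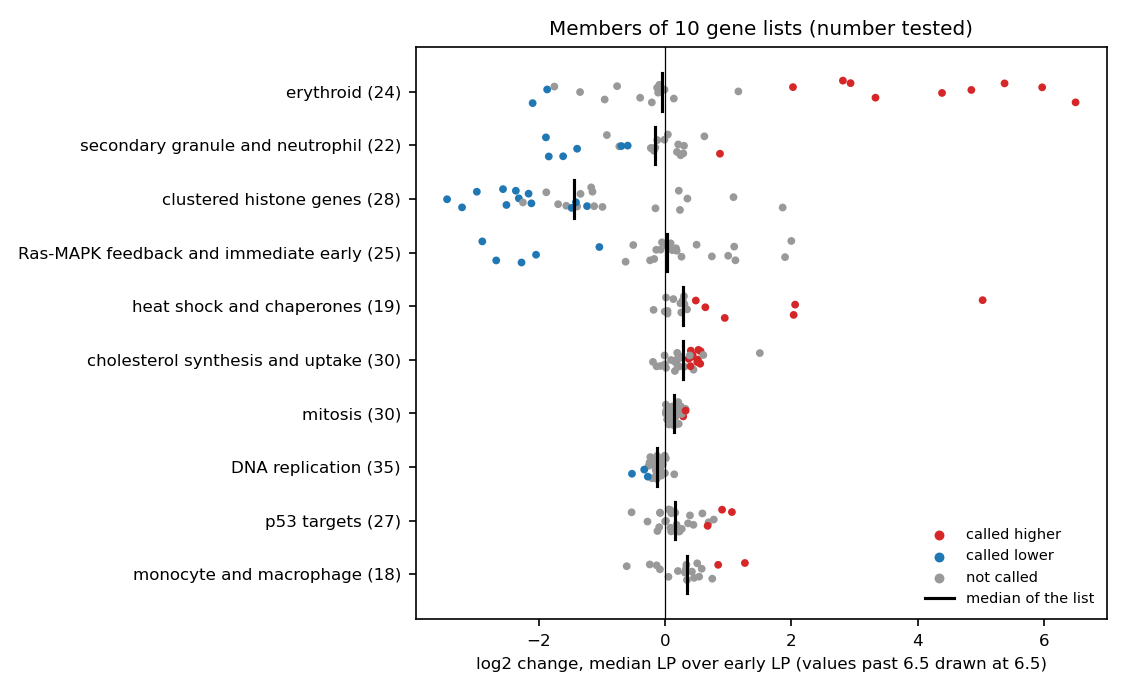
Each point is a tested gene of 1 of 10 lists, placed by its log2 change of median over early LP on the horizontal axis, with red for called higher, blue for called lower and grey for not called, and the black bar is the median of the list. Erythroid genes stretch past 5 to the right with a median of -0.05, clustered histone genes sit mostly to the left with a median of -1.45, and all 30 mitosis genes lie above 0.

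Many histone genes of the large clusters were lower. They encode the histones that package newly copied DNA, are transcribed in S phase, and their messenger RNAs end in a stem-loop and for the most part carry no poly(A) tail. Hist1h1a, a linker histone (chromosome 13, 23763668 to 23764414), stood at 2.31, 2.30 and 3.08 CPM in early LP and at 0.331, 0.220 and 0.132 in median LP. It fell by 3.45 (SE 0.39, adjusted p = 0.00116). Hist1h2bg, an H2B gene (chromosome 13, 23571400 to 23572014), went from 13.5, 13.3 and 16.2 CPM to 3.06, 4.35 and 2.20 and fell by 2.16 (SE 0.25, adjusted p = 0.00116). Phases were apart for both, and HPC stood at 3.88 ± 1.26 and 14.7 ± 4.21 CPM, near early LP. Hist1h1e fell by 2.12 (SE 0.25), Hist1h1b by 2.51 (SE 0.33), Hist1h2ao by 2.02 (SE 0.32) and Hist1h2ac by 2.98 (SE 0.45), and these calls passed without any 1 LP library. The locus of Hist1h1e is shared with another gene.

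Of the 65 genes in the table whose symbol starts with Hist and a digit, 51 were tested, 23 were lower and 0 higher, and 20 of the 23 lie on chromosome 13, the site of the largest cluster and of 41 of the 51 tested. The median log2 change was -1.57, 45 of 51 were negative, and 38 had early libraries above all median ones, against 13.7% of all genes. By family, 3 of 5 tested H1, 10 of 16 H2A, 6 of 13 H2B, 4 of 12 H3 and 0 of 5 H4 genes were lower. Of the list of 28 tested histone genes 12 were lower, between 7 and 9 when 1 LP library was left out.

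A few members went against the group without a call. Hist1h1c, a linker histone, stood at 19.3, 18.4 and 25.9 CPM in early LP and at 39.6, 27.0 and 7.25 in median LP, and Hist1h2bc at 1.35, 1.76 and 1.75 and then 9.64, 6.33 and 1.67 (adjusted p = 0.837 and 0.085). Hist3h2a was at 1.48, 2.13 and 1.83 CPM and then 5.34, 4.04 and 2.15. In all 3 genes median LP 3 was the lowest of its phase. The sum of the 51 genes was 120, 127 and 140 CPM in early, 106, 83.1 and 37.2 in median LP and 105 to 168 in HPC, so median LP 1 lay near early LP in the sum and median LP 3 far below. H1f0, the linker histone of slowly dividing and maturing cells, whose messenger RNA has a poly(A) tail, was higher (108 ± 5.02 to 154 ± 29.9 CPM), named after its values were seen, with a call that ended without any library but median LP 3 (adjusted p 0.113 to 0.189).

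**Figure D4:**
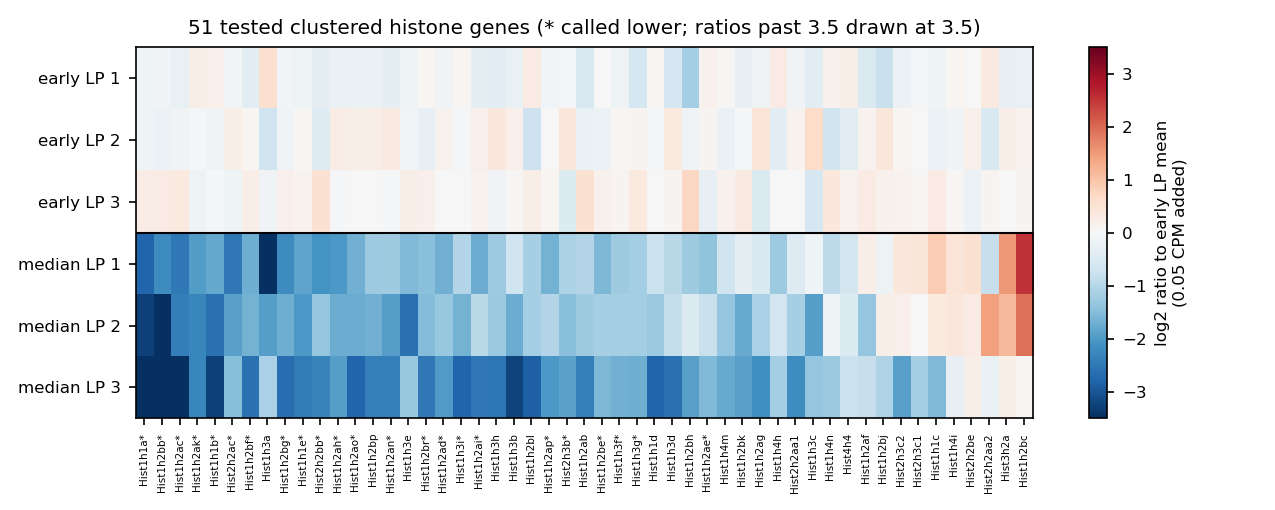
Columns are the 51 tested clustered histone genes ordered by log2 change, rows are the 6 LP libraries, and colour is the log2 ratio of each library's CPM plus 0.05 to the early LP mean plus 0.05, blue for lower and red for higher. The 3 median rows are blue over most genes, deepest in median LP 3, and Hist1h2bc and Hist3h2a at the right are red in median LP 1 and 2.

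Few other cell cycle genes passed the test. Of 35 DNA replication genes 3 were lower and 0 higher, with Tk1, thymidine kinase (-0.52, SE 0.11), Mcm7, a subunit of the replicative helicase (-0.27, SE 0.06), and Gins2, of the GINS complex (-0.33, SE 0.08). Their median was -0.13, 33 were negative, and 18 had early libraries above all median ones, against 13.7% of all genes. Of 30 mitosis genes 2 were higher and 0 lower, Kif23, a kinesin of cytokinesis (0.29, SE 0.06), and Nusap1, a spindle protein (0.32, SE 0.08). Here the median was 0.14, all 30 were positive, and 20 had median libraries above all early ones, against 12.4% of all genes. None of these 5 calls held in all leave-out fits, with Tk1 lost without any library but early LP 1 and the others without any 1 of the 6 (adjusted p 0.0505 to 0.212). Slbp, the protein that binds the histone stem-loop, was at 160, 157 and 162 and then 153, 145 and 149 CPM (adjusted p = 0.427). Pcna and Rrm2, both of S phase, were not called (-0.09 and -0.08).

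Cdkn1a, the p21 inhibitor of cyclin-dependent kinases and a target of p53 (chromosome 17, 29090986 to 29100722), was higher. It stood at 36.3, 41.8 and 40.1 CPM in early LP and at 78.9, 66.9 and 75.1 in median LP, with no overlap, and at 8.62 ± 0.452 in HPC. The log2 change was 0.90 (SE 0.08, adjusted p = 0.000257). Trp53inp1, a p53-induced stress protein, rose by 0.67 (SE 0.08, adjusted p = 0.00116) from 86.3, 77.5 and 75.3 to 135, 119 and 127 CPM. Eda2r, a death receptor of the TNF receptor family, rose by 1.06 (SE 0.22) from 0.958, 0.585 and 0.833 to 1.57, 1.76 and 1.63 CPM, a call lost without any 1 LP library (adjusted p 0.0518 to 0.143). Other p53 targets were not called, among them Mdm2, the ligase that degrades p53 (0.00, SE 0.07), Ccng1 (0.23, SE 0.07) and Pmaip1, the BH3 protein Noxa (0.69, SE 0.19, adjusted p = 0.0929). So 3 of 27 were higher and 0 lower, with 21 positive and a median of 0.16. Median libraries were above all early ones in 12, against 12.4% of all genes. Trp53 itself was at 144, 147 and 152 and then 141, 142 and 133 CPM (adjusted p = 0.515).

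Immediate early genes are switched on within minutes of a signal without new protein synthesis. In a list of these and of feedback genes of the Ras-MAPK pathway, 5 of 25 tested members were lower in median LP. Fos (chromosome 12, 85473901 to 85477270), which pairs with Jun to form the AP-1 transcription factor, stood at 133, 113 and 179 CPM in early LP and at 38.9, 35.5 and 28.4 in median LP, and fell by 2.04 (SE 0.28, adjusted p = 0.00329). Jun (chromosome 4, 95049036 to 95052222) went from 184, 158 and 242 CPM to 57.4, 48.0 and 15.4 and fell by 2.27 (SE 0.39, adjusted p = 0.0121). Dusp1, a phosphatase that switches off MAP kinases (chromosome 17, 26505591 to 26508472), went from 43.3, 34.7 and 63.8 CPM to 9.19, 8.35 and 4.62 and fell by 2.67 (SE 0.37, adjusted p = 0.00308). For all 3 genes early LP 3 was the highest and median LP 3 the lowest library of LP, and the phases did not overlap. HPC libraries stood at 354, 141 and 252 CPM for Fos, at 407, 205 and 320 for Jun and at 108, 41.7 and 75.8 for Dusp1, a spread of over 2-fold within 1 group.

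Fosb, a relative of Fos, went from 21.4, 13.2 and 31.7 CPM to 3.60, 3.96 and 1.32 (-2.89, SE 0.60, adjusted p = 0.0298), and Zfp36, tristetraprolin, which destabilises cytokine messenger RNAs, from 51.6, 51.3 and 71.9 to 32.2, 31.6 and 21.2 (-1.04, SE 0.24, adjusted p = 0.0462). Both calls ended without any 1 LP library (adjusted p 0.0525 to 0.0994 for Fosb and 0.0731 to 0.160 for Zfp36). Egr1, a zinc finger factor of the same early class, stood at 16.4, 14.5 and 15.7 CPM and then 37.8, 26.4 and 13.5, and Atf3 went from 0.0435, 0.251 and 0.458 to 1.61, 1.14 and 0.308 (adjusted p = 0.338 and 0.186). Dusp6, a phosphatase of ERK, was at 23.6, 22.7 and 28.9 and then 43.2, 35.6 and 27.2 CPM (adjusted p = 0.116). These 3 overlapped between phases and had median LP 3 as the lowest of its phase. Of the 25 tested members 0 were higher, the median was 0.03 and 13 were positive.

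The promoter of Dusp1 is shown because it is the 1 of 21 matched promoters of this list whose 250 bases before the start hold the cAMP response element TGACGTCA (in capitals, searched on both strands), at positions -143 to -136 from the start. The sequence is that of RefSeq on GRCm38.p6, chr17:26508473-26508722, minus strand. The element is in 2.76% of the 9298 promoters of tested genes, and a match is a description of letters, not a site in use. A CArG box, the other motif searched for this list, was in 3 of the 21 promoters (14.3%), the called gene Zfp36 among them, against 1.12% of the 9298.
Dusp1: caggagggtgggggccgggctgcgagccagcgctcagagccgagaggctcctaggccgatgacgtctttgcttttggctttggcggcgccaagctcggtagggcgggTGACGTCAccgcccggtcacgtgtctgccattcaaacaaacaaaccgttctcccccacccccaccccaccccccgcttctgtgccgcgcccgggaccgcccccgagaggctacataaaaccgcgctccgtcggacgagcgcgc

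Of 19 tested heat shock genes 6 were higher and 0 lower. Their proteins are chaperones that refold damaged proteins and are induced by heat shock factor. Hspa1a, an inducible HSP70 (chromosome 17, 34969359 to 34972156), stood at 10.9, 11.1 and 11.9 CPM in early LP and at 62.5, 41.4 and 37.1 in median LP, a log2 change of 2.06 (SE 0.31, adjusted p = 0.00568). Hspa1b, its neighbour (34956429 to 34959238), went from 21.3, 20.6 and 22.4 CPM to 120, 74.3 and 69.8, a log2 change of 2.04 (SE 0.35, adjusted p = 0.0123), a call that ended without early LP 1, 2 or 3 (adjusted p 0.0508 to 0.0842). Median LP 1 was the highest library for both, and no median library overlapped with early LP. In HPC they stood at 5.66, 14 and 4.91 CPM and at 6.08, 20.1 and 6.28, where HPC 2 was apart from the others.

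Their promoters are shown because the 2 genes are near-copies. Promoter bases are not part of the RNA, and how well reads of the 2 genes can be told apart was not tested. In the 250 bases before the RefSeq start on GRCm38.p6 (chr17:34972157-34972406 and chr17:34959239-34959488, both minus strand) 247 of 250 bases were identical (98.8%). Capitals mark the 3 bases that differ.
Hspa1a: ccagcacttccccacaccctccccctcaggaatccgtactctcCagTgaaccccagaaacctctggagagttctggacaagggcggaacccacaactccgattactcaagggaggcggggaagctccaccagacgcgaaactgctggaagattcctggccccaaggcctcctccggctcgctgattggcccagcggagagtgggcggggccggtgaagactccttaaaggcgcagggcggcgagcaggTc
Hspa1b: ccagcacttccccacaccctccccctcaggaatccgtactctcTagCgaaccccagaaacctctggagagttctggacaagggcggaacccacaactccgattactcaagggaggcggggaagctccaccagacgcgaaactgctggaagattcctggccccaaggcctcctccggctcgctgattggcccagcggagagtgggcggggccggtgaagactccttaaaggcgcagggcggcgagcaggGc
The sum of both genes, which does not depend on how reads were split, was 32.7 ± 1.42 CPM in early and 135 ± 41.2 in median LP, a ratio of 4.12, and 19 ± 13 in HPC.

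Of the other chaperones, some were called higher. Hspb1, the small heat shock protein HSP27, was higher by a ratio of 36.1 (95% interval 9.67 to 303) from 2 early fragments to 80 median ones. Hspb1 passed the filter for tested genes through median LP alone. Dnaja1, a co-chaperone of HSP70, rose by 0.49 (SE 0.08) from 344, 330 and 345 to 501, 456 and 470 CPM, Hsph1, HSP105, by 0.94 (SE 0.17) and Hsp90aa1, the inducible HSP90, by 0.64 (SE 0.13). The call of Dnaja1 ended without early LP 2 or 3 (adjusted p 0.0628 to 0.0641), and those of Hsph1 and Hsp90aa1 without any library but median LP 3 (0.0505 to 0.136). Of the 19 members 14 had median libraries above all early ones, against 12.4% of all genes, and the median was 0.29. Hspa8, the constitutive HSP70, was at 4327, 3955 and 4304 and then 4739, 5008 and 6264 CPM (adjusted p = 0.161), and Hspa5, the chaperone of the endoplasmic reticulum, had a log2 change of -0.15 (SE 0.09). The list of the unfolded protein and integrated stress response had 1 of 28 members higher, Atf5, a stress transcription factor (0.45, SE 0.08, lost without early LP 2 or median LP 1 or 2, adjusted p 0.0521 to 0.06), and a median of -0.01.

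In a list of cholesterol synthesis and uptake genes 10 of 30 tested members were higher by small steps and 0 lower. The list also holds the sterol exporter Abcg1, which is among the 10. The pathway builds cholesterol from acetyl-CoA, and its genes are held on together by SREBP factors when sterols are low. Hmgcs1, HMG-CoA synthase (chromosome 13, 119690462 to 119708077), stood at 77.1, 79.9 and 78.9 CPM in early and 123, 103 and 121 in median LP, a log2 change of 0.56 (SE 0.07, adjusted p = 0.00209), and at 38.6 ± 0.821 in HPC. Insig1, which holds SREBP in the endoplasmic reticulum and is itself an SREBP target, went from 67.6, 62.3 and 65.0 to 94.5, 92.6 and 93.8 CPM (0.53, SE 0.07, adjusted p = 0.00254). Sqle, squalene epoxidase, went from 78.0, 78.6 and 75.0 to 99.2, 101 and 107 CPM (0.41, SE 0.06, adjusted p = 0.00539). The phases were apart in these 3 genes, whose calls held without any 1 LP library.

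Among the others called were Cyp51 (0.43), Idi1 (0.44), Scd2 (0.56), Stard4 (0.52) and Abcg1 (0.40), of which Cyp51 and Idi1 are enzymes of the pathway and Abcg1 is a sterol exporter. Cyp51 lost its call without early LP 2 (adjusted p = 0.0514) and Idi1 without early LP 2 or median LP 1. Scd2 and Stard4 lost it without early LP 2 or 3 or median LP 2 or 3, and Abcg1 without any 1 library (adjusted p 0.0506 to 0.145 over these 4 genes). In all, 25 of the 30 were positive, and the median was 0.28. Median libraries were above all early ones in 21, against 12.4% of all genes. The count of genes called higher was between 4 and 7 when 1 LP library was left out. The summed level was 2467 to 2495 CPM in early, 2996 to 3115 in median LP and 1409 to 1602 in HPC.

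The promoter of Hmgcs1 is shown as the 1 of 19 matched promoters of this list with the sterol regulatory element TCACNCCAC in the 250 bases before the RefSeq start (both strands searched, match in capitals, positions -137 to -129 from the start). The element is in 0.925% of the 9298 promoters. The window is chr13:119690101-119690350 on GRCm38.p6, plus strand. Positions count from the RefSeq start just after this window, which lies upstream of the start that the deposited table gives for Hmgcs1, 119690462.
Hmgcs1: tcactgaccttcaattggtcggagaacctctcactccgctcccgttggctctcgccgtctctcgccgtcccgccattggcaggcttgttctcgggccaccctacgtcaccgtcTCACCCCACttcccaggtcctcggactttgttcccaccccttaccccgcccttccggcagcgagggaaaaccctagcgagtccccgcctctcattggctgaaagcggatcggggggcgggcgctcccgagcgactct

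Listed STAT5 targets and cytokine genes changed in both directions. Csn2, the milk protein beta-casein and a classic STAT5 target (chromosome 5, 87692624 to 87699421), stood at 22.2, 27.5 and 21.3 CPM in early LP and at 119, 104 and 55.7 in median LP. The log2 change was 1.97 (SE 0.23, adjusted p = 0.00135), and all 3 HPC libraries were below 0.1 CPM. Osm, oncostatin M, a cytokine of the interleukin 6 family, went from 19.98, 16.4 and 27.9 CPM to 8.19, 6.90 and 5.41 and fell by 1.65 (SE 0.20, adjusted p = 0.00151). The phases were apart in both genes, which moved in opposite directions within 1 list of STAT5 targets. That list had 3 of 21 members higher, with Socs3, a feedback inhibitor of cytokine receptors (0.70, SE 0.15), and Pim1, a survival kinase (0.36, SE 0.08), and 1 lower, with a median of 0.05. The calls of Socs3 and Pim1 ended without any 1 LP library (adjusted p 0.0838 to 0.148 and 0.0704 to 0.178), and Cish, another STAT5 feedback gene, was not called (0.41, adjusted p = 0.134).

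Csf1, the growth factor of macrophages, went from 3.26, 4.52 and 3.37 CPM to 14.2, 10.1 and 6.86 (1.48, SE 0.26, adjusted p = 0.0121), a call that ended without early LP 1 or 3 (adjusted p 0.0536 to 0.0632). Hgf, hepatocyte growth factor, rose by 0.65 (SE 0.11), and Fst, follistatin, an activin inhibitor, by 0.45 (SE 0.08), from 101, 97.3 and 100 to 153, 131 and 123 CPM. Both lost the call without early LP 2 or 3, and Hgf also without median LP 2 (adjusted p up to 0.0742). Of 20 tested cytokines and growth factors 3 were higher and 1 lower. Thbs1, the matricellular thrombospondin 1, went from 57.6, 43.2 and 52.9 CPM to 130, 200 and 68.5 (1.37, SE 0.30, adjusted p = 0.0341), a call that held without median LP 3 alone (adjusted p 0.0773 to 0.172 without each of the others). Spp1, osteopontin, rose by 0.58 (SE 0.11) from 502, 560 and 500 to 939, 711 and 690 CPM and lost the call without any 1 early library (adjusted p up to 0.0998).

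The enzymes and receptors that handle extracellular adenosine, a nucleoside that dampens immune cells, did not move as one. Nt5e, the CD73 enzyme that makes adenosine from AMP (chromosome 9, 88327609 to 88372089), went from 157, 148 and 150 CPM to 250, 242 and 263, a log2 change of 0.73 (SE 0.07, adjusted p = 0.000804), against 1.21 ± 0.233 in HPC. Adora2b, a low-affinity adenosine receptor, went from 2.35, 2.72 and 2.79 CPM to 7.57, 5.89 and 4.97 (1.23, SE 0.19, adjusted p = 0.00571). Both were apart between phases and kept their calls without any 1 LP library. Entpd1, the CD39 enzyme upstream of CD73, was lower at 3.48, 4.52 and 3.66 and then 2.36, 2.07 and 2.33 CPM (-0.79, SE 0.17), a call lost without any 1 LP library (adjusted p 0.0623 to 0.170). Cd200r1, an inhibitory receptor of myeloid cells, rose by 0.63 (SE 0.10, adjusted p = 0.00739). Cd274, the ligand PD-L1, was at 21.4 CPM on average in early and 29.1 in median LP (adjusted p = 0.081).

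Other genes with the largest or best-supported changes had varied roles. Txnip, which restrains thioredoxin and glucose uptake, rose by 0.90 (SE 0.11) from 141, 140 and 141 to 308, 238 and 242 CPM, and Slc2a3, the glucose transporter GLUT3, fell by 1.02 (SE 0.10) from 12.1, 11.1 and 10.6 to 6.21, 5.58 and 4.92. Bnip3, a mitochondrial protein induced by low oxygen, rose by 0.66 (SE 0.10), yet the glycolysis and hypoxia list had only 3 of 35 members higher and 1 lower. Mtss1, an actin regulator, rose by 0.66 (SE 0.07) and Car4, a membrane carbonic anhydrase, by 1.21 (SE 0.13), from 6.83, 8.57 and 7.75 to 17.7, 16.0 and 19.9 CPM. Slc28a2, a nucleoside transporter, fell by 0.86 (SE 0.10), B3gnt5, which starts lacto-series glycolipids, by 0.69 (SE 0.09) from 229, 233 and 215 to 147, 138 and 134 CPM, Mamdc2 by 1.62 (SE 0.23) and Plbd1, a phospholipase B-like protein of granulocytes, by 1.60 (SE 0.24). Ifitm6 fell by 1.25 (SE 0.20), a call that ended without early LP 2 (adjusted p = 0.0514). Adjusted p of the other 9 genes in this paragraph lay between 0.000815 and 0.00539 and held without any 1 LP library.

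Of 25 tested stem and progenitor genes 2 were lower and 0 higher, with 10 positive and a median of -0.08. Cd34 went from 3.22, 3.81 and 3.46 CPM to 1.32, 1.80 and 1.19 and fell by 1.28 (SE 0.18, adjusted p = 0.00313). Eng, endoglin, an accessory TGF-beta receptor, went from 1.04, 1.09 and 1.33 CPM to 0.414, 0.440 and 0.440 and fell by 1.41 (SE 0.21, adjusted p = 0.00499), against 103 to 118 in HPC. The phases were apart in both, and both loci are shared with another gene. The call of Eng ended with limma on log2(FPKM + 1) (adjusted p = 0.214), and Kit, Myb and Runx1 were not called.

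Of 19 B cell genes 12 were tested and 4 of these were higher, all below 1.3 CPM in every LP library. The filter drops genes that are low in every group, and Pou2af1 passed it through median LP alone. The share of tested genes called higher depends on that filter. Pou2af1 had 1 recovered fragment in early LP and 41 in median LP (ratio 37.0, 95% interval 6.28 to 1496), and Blnk and Rag1 had 0 and 31 each, at least 9.32-fold higher. Spib rose by 1.66 (SE 0.37). The calls of Blnk and Rag1 ended without any library but median LP 3, and that of Spib without any but early LP 3 (adjusted p 0.0547 to 0.177). The summed level of the B cell list was 207 to 229 CPM in early LP, 164 to 184 in median LP, and 72.2 to 94.2 in HPC. In LP it came nearly all from Igll1, the surrogate light chain, which stood at 199, 220 and 203 and then 158, 151 and 173 CPM (adjusted p = 0.155). Siglech, a marker of plasmacytoid dendritic cells, rose by 3.54 (SE 0.54) from 0.0435, 0.0836 and 0.0833 to 0.662, 0.923 and 1.05 CPM. Siglech too passed the filter through median LP alone. In the T and NK cell list Gzmb was higher (ratio 11.4, 95% interval 3.63 to 57.9) and Cd3d lower (-1.65, SE 0.38), both lost without any 1 LP library (adjusted p 0.0517 to 0.187), among 7 tested genes with a summed level of 6.01 to 8.20 and 8.79 to 9.89 CPM. The part of a few such cells in these values was not tested.

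In 9 of 46 lists there was no called member, and medians were small. Cytosolic ribosomal proteins had a median log2 change of -0.08 over 45 genes, 41 of them negative, with no gene apart between phases. Genes of oxidative phosphorylation had -0.14 over 33, with 14 in which early libraries were above all median ones, against 13.7% of all genes. MHC class I and antigen processing had -0.11 over 23, chromatin modifiers 0.06 over 32, myeloid transcription factors 0.06 over 32, the BCL2 family 0.09 over 16, retinoic acid and nuclear receptor genes 0.07 over 18, amino acid supply 0.07 over 20 and imprinted genes -0.05 over 15. Among the transcription factors, Cebpa, a driver of granulocyte fate, was at 244 CPM on average in early and 282 in median LP (adjusted p = 0.237), and Cebpe, which turns on secondary granule genes, at 54.1 and 46.2 (adjusted p = 0.363).

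The call with the most counts is uncertain. Chi3l3, a chitinase-like protein of myeloid cells, was listed at 40518, 0 and 39246 CPM in early LP and at 0 in all median libraries. It was the 1 called gene of 318 whose phases overlapped, and the call ended without any library but early LP 2 (adjusted p 0.0655 to 0.103). Its near-identical neighbour Chi3l4 ran opposite within early LP, at 9.23, 562 and 7.08 CPM, and stood at 351, 402 and 461 in median LP. The sum of both was 40527, 562 and 39253 CPM and then 351, 402 and 461, so the copies alone do not even out early LP 2. With both genes left out before scaling, an alternative chosen after the data had been seen, 191 genes were higher and 133 lower. No chromosome stood out as a whole, with medians between -0.03 and 0.04 on the log2 scale.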

How the data were processed

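RNA of 9 libraries was prepared with Trizol and the Illumina TruSeq RNA kit and sequenced on a HiSeq, per the labels' protocols. Per the submitters' processing notes, TopHat2 2.0.6 and mm10 were used. The quantifier, annotation release and strand setting were not given in the sources used here. The deposited table gives FPKM and estimated counts of 21388 RefSeq transcripts, both made by the authors per the file headers, with 1 column of each per library. The deposited estimated counts are not whole. Their low values were multiples of 1 step per library (0.867 to 1.23), whole within 0.05 for 90.4 to 91.7% of values up to 50 steps, and division by the step gave recovered fragments. Deposited totals were 21.9 to 25.8 M.

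Transcripts were summed by gene name to 16537 genes, of which 2584 lie in a locus shared with another gene. The main test was edgeR 4.0.16 (R 4.3.3, quasi-likelihood, two-sided) on rounded estimated counts with TMM scaling and filterByExpr, which left out 3700 genes. A gene can pass this filter because of its level in median LP, as Hba-a2, Pou2af1, Siglech, Hspb1 and Gpnmb did. Counts of called members depend on that. All 9 libraries entered 1 fit with a coefficient per group, 6 residual degrees of freedom and a common biological coefficient of variation of 9.81%. Calls are Benjamini-Hochberg adjusted p under 0.05 over all genes tested. SE is the size of the log2 change over the root of F. Fold changes of genes with 0 to 3 recovered fragments in a group are bounds against 3 fragments over the group or ratios with exact 95% intervals, covering counting error only. The script was tested on simulated data. Coordinates count from 1, and promoters were matched by symbol to RefSeq (GRCm38.p6).

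Named genes were taken from the 15 largest changes upward and downward (called, no overlap, mean of 5 CPM or more in the higher phase, no predicted genes), the 10 smallest adjusted p each way under that minimum, up to 4 called genes per list, Pml, Rara, Xist and 4 Y-linked genes, which the table does not list. Other genes were named after their values were seen. A few genes that meet the rule are not reported here. The comparison and the gene lists were chosen with earlier results of these data known. Alternatives were DESeq2 1.42.0, limma 3.58.1 on log2(FPKM + 1) and log2(FPKM + 0.1), RLE and upper quartile scaling, and other filters. Further ones were recovered fragments, the 6 LP libraries alone, a replicate block, a transcript length covariate, leaving out each LP library, and adjusted p under 0.01. For each library that covariate was the slope, on log2 transcript length, of its log2 CPM deviations from the group mean.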

Additional observations from a re-analysis of the deposited data

How the results depend on the processing

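None of the counts, nor of the genes taken by the naming rule, changed direction under the settings tried. Other genes in the text were not recomputed under them, apart from the adjusted p of called genes without 1 LP library. Counts of genes higher (190) and lower (128) became 325 and 251 with DESeq2, 362 and 243 with only the LP libraries, 735 and 565 with the transcript length covariate, 648 and 462 with the replicate block and that covariate, and 63 and 33 at adjusted p under 0.01. With limma on log2(FPKM + 0.1) 121 were higher, and without 1 LP library 66 to 133 were higher and 39 to 77 lower. List members higher (67) and lower (43) became 142 and 103 with the length covariate, 136 and 99 with block and covariate, 30 and 16 at adjusted p under 0.01, and 30 to 53 and 19 to 27 without 1 library. DESeq2 called 69 list members lower, and limma on log2(FPKM + 1) 43 higher. Erythroid members lower (2) were 4 with the length covariate and with block and covariate, and 1 with limma on log2(FPKM + 1), with a mean of at least 1 CPM, with only LP and at adjusted p under 0.01. Without 1 library, 6 to 8 erythroid members were higher and 1 to 2 lower. Secondary granule members higher (1) were 2 with DESeq2, 0 with limma on log2(FPKM + 0.1), 4 with only LP, and 2 with the length covariate, alone or with the block. Those lower (6) were 3 at adjusted p under 0.01 and 3 to 6 without 1 library. Immediate early and Ras-MAPK feedback members higher (0) were 1 with DESeq2 and 3 with the length covariate. They were 2 with block and covariate, and 0 to 1 without 1 library. Those lower (5) were 3 with limma on log2(FPKM + 1), 2 at adjusted p under 0.01, and 3 without any 1 library. Heat shock members higher (6) were 13 with the length covariate, alone or with the block, 2 at adjusted p under 0.01, and 2 to 6 without 1 library. Cholesterol members higher (10) were 4 at adjusted p under 0.01 and 4 to 7 without 1 library. Histone members higher (0) were 2 with DESeq2, with the length covariate, and with block and covariate, and 0 to 2 without 1 library. Those lower (12) were 20 with the length covariate, 19 with block and covariate, 6 at adjusted p under 0.01, and 7 to 9 without 1 library. The cause of these shifts was not tested.

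With the replicate number as a block 130 genes were higher and 62 lower, and 24 list members were lower. Deviations from the group mean correlated at -0.241, -0.050 and -0.134 across genes between same-numbered libraries. Deviations cancel out within a group, which ties these values together. They cannot show whether same-numbered libraries share a batch or mouse, which was not tested. Low counts limit genes under about 1 CPM, and genes with no recovered fragment in a group are bounded against a floor of 3 fragments.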

Other observations

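Some called genes belong to groups that the lists did not hold, and all of these were chosen after their values were seen. Gpnmb, a glycoprotein of lipid-laden macrophages and osteoclasts, went from 0.218, 0.0418 and 0.0416 CPM in early LP to 2.36, 3.74 and 3.96 in median LP. HPC stood at 0.039 or below. The log2 change was 5.01 (SE 0.46, adjusted p = 0.000334). Gpnmb passed the filter for tested genes through median LP alone, which limits what that p-value can show. Mmp12, macrophage elastase, had 1 recovered fragment in early and 68 in median LP (ratio 61.3, 95% interval 10.6 to 2458), a call that ended without early LP 2 (adjusted p = 0.0514). Trem1, an activating receptor of neutrophils and monocytes, went from 15.8, 17.1 and 15.8 to 31.9, 25.7 and 34.4 CPM, and Il1f9, an interleukin 1 family cytokine, from 71.5, 61.7 and 65.1 to 112, 110 and 102. Both kept their calls without any 1 LP library.

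Tmcc2, a membrane protein of red cell precursors, rose from 0.174, 0.167 and 0.416 to 1.49, 1.63 and 1.67 CPM (log2 change 2.63, SE 0.29, adjusted p = 0.00112), against 13.7 to 15.8 in HPC. Hemgn, hemogen, rose by 1.57 (SE 0.26), a call that ended without early LP 2 (adjusted p = 0.0577). The eosinophil-associated ribonucleases Ear1 and Ear2, near-identical copies, were lower, with a sum of 22.6 ± 2.22 CPM in early and 11.6 ± 1.89 in median LP and 49.6 ± 7.99 in HPC. The call of Ear1 ended without early LP 2 (adjusted p = 0.0665). Mmp25, a membrane-bound metalloproteinase of neutrophils, fell by 1.78 (SE 0.31) from 3.18, 2.76 and 3.58 to 0.952, 1.14 and 0.659 CPM, the same direction as Mmp8 and Mmp9, and its call ended without median LP 1 (adjusted p = 0.0549).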
